A study of Homo sapiens with 12 samples.

Results

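The transcripts described here are 10 genes of the AP-1 transcription factor family and of the wider immediate early class: FOS, FOSL1, FOSL2, JUN, JUND, EGR1, ATF3, NR4A1, NR4A2 and ARC. They were taken by gene name from a deposited table of raw counts, in which they make up 10 of 63241 genes, and all 10 passed the filter on low counts. RNA was measured by polyA RNA sequencing in 12 libraries of 2 human medulloblastoma cell lines, DAOY and ONS76, both labelled as wild type. The 4 groups, of 3 libraries each, were DAOY under fluid shear stress (FSS), static DAOY, ONS76 under FSS and static ONS76. The medium of all 4 groups was artificial cerebrospinal fluid, and FSS was applied by orbital shaking of the 6-well plates at 100 rpm for 18 h, with static plates left unshaken. Shear and any further effect of shaking cannot be told apart. The replicates are described as biological, but how the cultures were separated is not stated, so a p-value reflects library-to-library spread, which may be technical. The questions are which members respond to FSS in each line and whether the lines differ in it.

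Immediate early genes are those that cells transcribe within minutes of a stimulus, without needing new protein, after kinase cascades act on factors such as SRF, the ternary complex factors and CREB that are already bound to their promoters. AP-1 is a dimer of bZIP proteins, usually a FOS family protein paired with a JUN family protein, and it regulates genes of proliferation, migration and stress. Most of these transcripts are short-lived and the first wave fades within hours, so a library made 18 h after onset comes after the usual time of that wave. With a single time point, whether a level was sustained or arose shortly before harvest was not tested.

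Library totals ran from 39.2 to 44.7 M counts for DAOY FSS, 38.1 to 41.0 M for static DAOY, 41.4 to 45.4 M for ONS76 FSS and 39.4 to 49.3 M for static ONS76. Each of the 10 genes had between 178 and 12248 counts in every library, which puts its counting error between 0.904% and 7.50%. Of 16 medulloblastoma and cerebellar progenitor markers, 12 reached a mean of 1 TPM (transcripts per 1e6, a level corrected for gene length) in both DAOY groups and 5 did in both ONS76 groups. SOX2 was listed at 0 in every library, which does not show that the gene is silent. The 6 squamous and basal epithelial markers summed in ONS76 to 415 to 447 TPM under FSS and 456 to 518 TPM in static cells. Nearly all of that was 1 gene, TP63, with means of 422 TPM under FSS and 474 TPM in static ONS76. The next highest mean was that of KRT14 in static ONS76, at 8.30 TPM. EPCAM went the other way, with means of 1.39 TPM under FSS and 1.54 TPM in static DAOY and near 0 in ONS76. The 6 fibroblast markers summed in DAOY to 1586 to 1766 TPM under FSS and 1802 to 2034 TPM in static cells, nearly all of it COL1A1 and COL1A2. In static DAOY the means of PDGFRB, LUM and DCN were 11.3, 3.70 and 0.893 TPM. THY1 was listed at 0 in every library, which again does not show silence. The 2 collagen genes moved in opposite directions. COL1A1 averaged 1099 TPM under FSS and 1556 TPM in static DAOY, and COL1A2 averaged 562 TPM under FSS and 375 TPM in static DAOY. The 5 leukocyte markers summed to 6.25 to 8.73 TPM in DAOY under FSS and 3.41 to 4.05 TPM in static DAOY, nearly all of it CD14, while PTPRC and CD68 were near 0. These sums moved with FSS in the same libraries as the genes below, and their part in the results was not tested.

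The promoters of 4 of the genes are shown because their RNA went different ways under FSS: EGR1 fell in ONS76 and was not called in DAOY, JUN rose in both lines, JUND fell in DAOY, and FOS passed the threshold in DAOY by a narrow margin. Each window runs from 250 bases before to 50 bases after the annotated start, 5′ to 3′ on the gene's own strand, from RefSeq on GRCh38.p14. EGR1 is chr5:138465229-138465528 on the plus strand, JUN is chr1:58783998-58784297 on the minus strand, JUND is chr19:18281573-18281872 on the minus strand and FOS is chr14:75278578-75278877 on the plus strand. Capitals mark every match to the motifs named in the next paragraph.
EGR1: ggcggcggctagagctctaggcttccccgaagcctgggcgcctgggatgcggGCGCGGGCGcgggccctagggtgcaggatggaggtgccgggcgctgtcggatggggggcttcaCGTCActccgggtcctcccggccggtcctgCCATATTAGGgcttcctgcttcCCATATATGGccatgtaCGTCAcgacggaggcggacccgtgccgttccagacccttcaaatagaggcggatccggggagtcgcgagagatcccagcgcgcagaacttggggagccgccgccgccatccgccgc
JUN: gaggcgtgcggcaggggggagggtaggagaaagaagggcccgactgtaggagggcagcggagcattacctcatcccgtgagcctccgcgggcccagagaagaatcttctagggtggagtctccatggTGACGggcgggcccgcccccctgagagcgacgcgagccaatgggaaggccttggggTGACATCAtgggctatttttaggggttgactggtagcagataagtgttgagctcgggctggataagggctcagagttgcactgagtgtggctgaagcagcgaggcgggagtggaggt
JUND: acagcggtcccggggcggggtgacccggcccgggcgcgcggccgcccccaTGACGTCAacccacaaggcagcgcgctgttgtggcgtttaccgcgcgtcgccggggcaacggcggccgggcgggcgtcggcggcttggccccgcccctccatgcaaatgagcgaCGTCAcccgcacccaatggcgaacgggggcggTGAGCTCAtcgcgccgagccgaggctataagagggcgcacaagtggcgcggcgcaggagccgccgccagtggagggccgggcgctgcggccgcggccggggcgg
FOS: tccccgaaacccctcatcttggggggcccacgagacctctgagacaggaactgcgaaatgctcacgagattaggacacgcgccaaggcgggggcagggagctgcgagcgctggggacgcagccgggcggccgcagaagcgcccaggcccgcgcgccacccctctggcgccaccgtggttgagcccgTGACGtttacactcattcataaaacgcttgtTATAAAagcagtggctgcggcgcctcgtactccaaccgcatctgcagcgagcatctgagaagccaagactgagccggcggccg

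Motifs were searched on both strands as plain letters, with N for any base. The AP-1 site was TGANTCA, the CRE-like site TGANNTCA, the full CRE (cAMP response element) TGACGTCA, the CRE half-site TGACG, the EGR site GCGNGGGCG, the NR4A site AAAGGTCA and the TATA box TATAAA. The CArG box, which SRF binds, was searched by its consensus. A full CRE is also counted as a CRE-like site and holds a half-site on each strand. The EGR1 window held 2 CArG boxes, at -105 to -96 and at -83 to -74 from the start, 2 CRE half-sites and 1 EGR site. Of 35116 RefSeq promoter windows of the same length, 1.29% held a CArG box and 9.43% an EGR site. The JUN window held a CRE-like site at -67 to -60, a motif found in 11.5% of windows. The JUND window held a full CRE at -200 to -193, found in 1.85% of windows, and a second CRE-like site at -54 to -47. The FOS window held a CRE half-site at -64 to -60, found in 24.6% of windows, and a TATA box at -33 to -28, found in 11.5%. The FOSL2 window held the only exact AP-1 site in the 9 windows searched, at 5 to 11 bases after the start, a motif that 7.71% of windows hold. ATF3 has 2 annotated starts, and the first held a CRE-like site and an NR4A site, with the NR4A motif present in 1.22% of windows. Windows were available for 7 of the 10 genes, the others being FOSL1, NR4A2 and ARC. A match describes the letters of the window and is not evidence of binding.

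**Figure D1:**
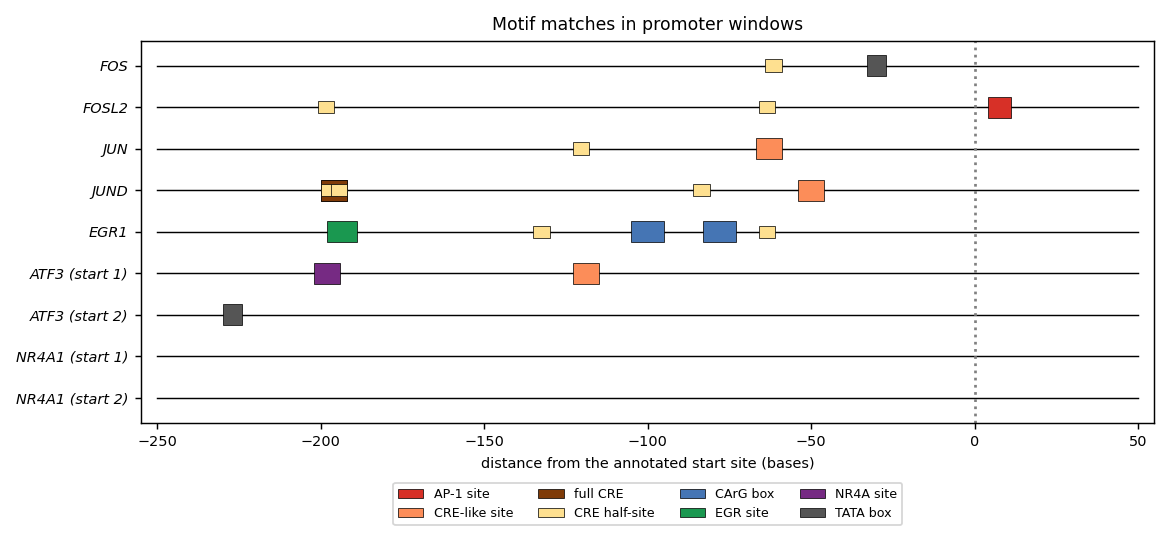
Motif matches in the 9 promoter windows of 7 genes, by distance in bases from the annotated start site (dotted line), with the direction of transcription to the right. Box width is the motif's length to scale, box height carries no value, and the EGR1 window holds both of the CArG boxes found.

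The FOS family is given first. FOS encodes the classic AP-1 subunit c-Fos, whose RNA is among the shortest-lived known. In DAOY it stood at 6.75, 7.24 and 6.36 CPM (counts per 1e6 after TMM scaling) under FSS, against 5.80, 4.49 and 6.15 CPM in static cells. All 3 FSS libraries were above all 3 static ones, but the gap between the nearest libraries was small. The log2 fold change was 0.31 (SE 0.12, adjusted p = 0.0421 with edgeR), a rise that barely passed the threshold. Without static replicate 2, the lowest library, it was 0.18 (adjusted p = 0.292 with edgeR), and the call was also lost without FSS replicate 1 (0.0865), FSS replicate 2 (0.166) or static replicate 1 (0.0555), and with no count filter (0.0621). In ONS76, FOS stood at 5.70, 5.86 and 5.87 CPM under FSS and 6.06, 5.01 and 5.97 CPM in static cells. The groups overlapped and the log2 fold change was 0.03 (SE 0.13, adjusted p = 0.907 with edgeR). The gene lies at chr14:75278774-75282230 (GRCh38, GENCODE 29).

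FOSL1 encodes Fra-1 and FOSL2 encodes Fra-2, AP-1 subunits whose RNA and protein last longer than those of FOS. FOSL1 in DAOY had 38.4, 40.1 and 42.7 CPM under FSS, against 37.4, 33.2 and 30.8 CPM in static cells. The groups did not overlap, and FOSL1 rose by 0.26 on the log2 scale (SE 0.060, adjusted p = 0.000854 with edgeR). ONS76 had 54.6, 48.5 and 52.7 CPM under FSS and 51.9, 50.7 and 51.1 CPM in static cells, with the static libraries lying inside the range of the FSS ones. FOSL2 in DAOY had 194, 194 and 193 CPM under FSS, against 176, 170.1 and 161 CPM in static cells. The 3 FSS libraries were nearly equal and above every static library, and FOSL2 rose by 0.19 (SE 0.041, adjusted p = 0.000242 with edgeR). ONS76 libraries had 112, 112 and 112 CPM under FSS, against 124, 113 and 126 CPM in static cells. In CPM all FSS libraries were below the static ones, by a small margin from static replicate 2. In TPM the groups overlapped, with FSS replicate 1 at 45.8 and static replicate 2 at 44.7. The log2 fold change of -0.11 (SE 0.042) did not pass the threshold, with an adjusted p = 0.0571 with edgeR. Without static ONS76 replicate 2 it was -0.15 with an adjusted p = 0.00874 (edgeR). FOSL2 overlaps an annotated antisense gene that held 226 counts over all 12 libraries, and whether the counting used strand is not given.

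JUN encodes c-Jun, the main partner of FOS proteins and a target of the JNK kinases, and it was one of 3 genes that rose in both lines. In DAOY it had 126, 132 and 128 CPM under FSS, against 114, 102 and 94.3 CPM in static cells. The levels in ONS76 were 63.5, 67.6 and 68.5 CPM under FSS, against 58.1, 54.1 and 56.3 CPM in static cells. In each line every FSS library was above every static one. The rise was 0.32 on the log2 scale in DAOY (SE 0.049, adjusted p = 4.02e-06 with edgeR) and 0.24 in ONS76 (SE 0.053, adjusted p = 0.000567 with edgeR). The difference between these responses was 0.07 with a 95% interval of -0.07 to 0.21.

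JUND encodes JunD, a family member that resting cells also hold and that restrains growth in mouse fibroblasts. In DAOY it had 203, 201 and 211 CPM under FSS, against 273, 242 and 251 CPM in static cells. Every FSS library was below every static one, and JUND fell by 0.32 on the log2 scale (SE 0.042, adjusted p = 2.07e-07 with edgeR), the 1 of the 10 genes to fall in DAOY. For ONS76 the values were 193, 192 and 205 CPM under FSS and 200.0, 204 and 192 CPM in static cells. Those groups overlapped, with a log2 fold change of -0.01 (SE 0.042, adjusted p = 0.866 with edgeR).

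The opposite changes of JUN and JUND in DAOY showed in the share that JUN took of their summed TPM. It was 26.8%, 28.0% and 26.4% under FSS, against 19.8%, 20.0% and 18.2% in static DAOY. In ONS76 it was 16.3%, 17.3% and 16.5% under FSS, against 14.7%, 13.6% and 14.8% in static cells. In both lines the FSS and static libraries did not overlap, with means of 27.1 ± 0.824% and 19.3 ± 0.983% in DAOY and 16.7 ± 0.502% and 14.4 ± 0.678% in ONS76 (FSS and static, SD, n = 3 each). With 3 libraries against 3, an exact two-sided permutation test cannot go below p = 0.1, so no test was made of the shares. Within the FOS family the shares moved less: FOSL1 took 42.5 ± 1.41% under FSS and 41.6 ± 1.46% in static DAOY, and 61.0 ± 1.46% under FSS and 59.3 ± 1.36% in static ONS76 (SD, n = 3 each), with overlapping libraries in each line. JUNB and FOSB were listed at 0 in all 12 libraries and are in neither sum. Such a listing does not show that the genes are silent.

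**Figure D2:**
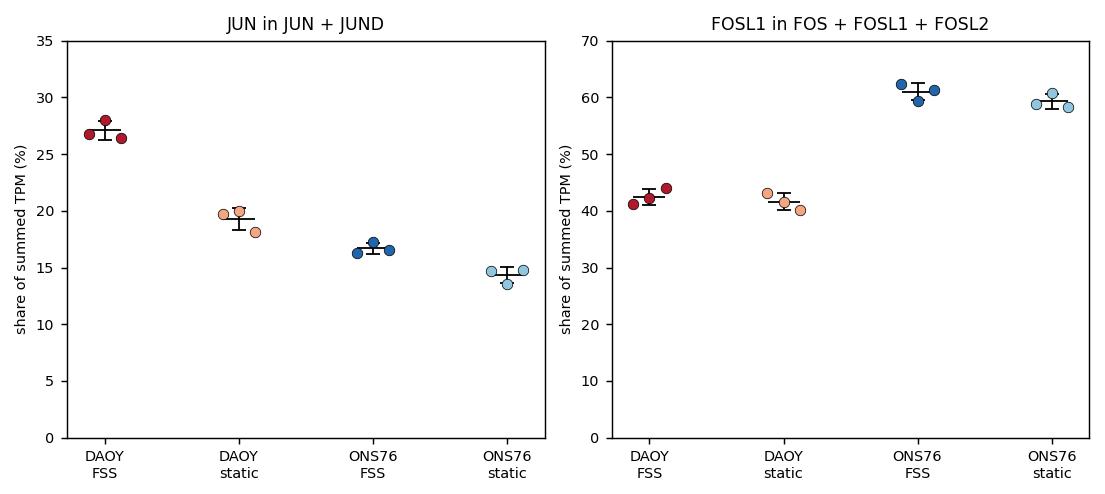
Share of JUN in the summed TPM of JUN and JUND (left) and of FOSL1 in that of FOS, FOSL1 and FOSL2 (right), in percent, with a point per library and the mean ± SD as bars (n = 3). JUN takes a larger share under FSS than in static cells in both lines, with means of 27.1% and 19.3% in DAOY, while the FOSL1 shares overlap within each line.

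ATF3 encodes a stress-induced bZIP factor that pairs with JUN proteins or with itself. In DAOY it had 64.2, 65.2 and 65.6 CPM under FSS, against 58.4, 45.3 and 45.2 CPM in static cells. The FSS libraries lay close together above a more scattered static group, and ATF3 rose by 0.39 on the log2 scale (SE 0.069, adjusted p = 2.47e-05 with edgeR). ATF3 in ONS76 had 5.65, 6.42 and 6.83 CPM under FSS and 7.10, 6.78 and 7.64 CPM in static cells. Those groups overlapped by 1 library and the log2 fold change was -0.19 (SE 0.11, adjusted p = 0.208 with edgeR).

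EGR1 encodes a zinc finger factor that growth factors and calcium induce, in large part through SRF. In ONS76 it had 5.30, 4.71 and 4.64 CPM under FSS, against 9.18, 8.28 and 9.59 CPM in static cells. The groups were well apart and EGR1 fell to 0.541 of its static level (95% interval 0.460 to 0.637), a log2 fold change of -0.89 (SE 0.12, adjusted p = 7.41e-07 with edgeR). In DAOY it had 28.2, 37.6 and 29.7 CPM under FSS and 34.1, 28.4 and 36.0 CPM in static cells. Those groups overlapped fully, with a log2 fold change of -0.04 (SE 0.087, adjusted p = 0.746 with edgeR). EGR1 is at chr5:138465490-138469315, and the CArG boxes printed above lie just before its start.

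NR4A1 and NR4A2 encode Nur77 and Nurr1, orphan nuclear receptors whose activity is set mostly by how much of them is made, and they are well known as targets of calcium and cAMP signals. NR4A2 in DAOY had 10.1, 9.82 and 11.2 CPM under FSS, against 4.59, 5.28 and 4.90 CPM in static cells. NR4A2 in ONS76 had 41.6, 39.4 and 37.3 CPM under FSS, against 22.2, 20.0 and 24.2 CPM in static cells. All libraries separated in both lines. The level under FSS was 2.10 times the static one in DAOY (95% interval 1.85 to 2.39, adjusted p = 5.91e-11 with edgeR) and 1.78 times in ONS76 (1.61 to 1.97, adjusted p = 2.53e-10 with edgeR). NR4A1 in DAOY had 16.6, 15.0 and 17.9 CPM under FSS, against 15.5, 11.5 and 11.6 CPM in static cells. Static replicate 1 lay above FSS replicate 2, and NR4A1 rose by 0.36 on the log2 scale (SE 0.10, adjusted p = 0.00473 with edgeR), a call lost without static DAOY replicate 2 (adjusted p = 0.0535 with edgeR). NR4A1 in ONS76 had 6.73, 6.50 and 7.33 CPM under FSS, against 5.62, 5.59 and 6.19 CPM in static cells. Every FSS library was above every static one, but the log2 fold change of 0.24 (SE 0.12) did not pass the threshold, with an adjusted p = 0.138 with edgeR. NR4A3, the remaining member of that family, was listed at 0 throughout.

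ARC encodes a protein of neuronal synapses that is descended from a retroelement capsid and whose RNA tracks neuronal activity, and it had the largest fold change of the 10 genes in both lines. In DAOY it had 11.5, 9.70 and 11.2 CPM under FSS, against 4.10, 4.04 and 4.34 CPM in static cells. In ONS76 it had 14.3, 15.1 and 14.3 CPM under FSS, against 6.33, 7.31 and 8.25 CPM in static cells. The lowest FSS library of each line was well above its highest static one. The level under FSS was 2.59 times the static one in DAOY (95% interval 2.24 to 3.00, adjusted p = 5.23e-12 with edgeR) and 2.00 times in ONS76 (1.74 to 2.30, adjusted p = 2.98e-09 with edgeR). ARC and NR4A2 were the members that at least doubled in DAOY, where 3.88% of all tested genes were called and at least doubled, and ARC alone did so in ONS76, where 1.75% did.

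**Figure D3:**
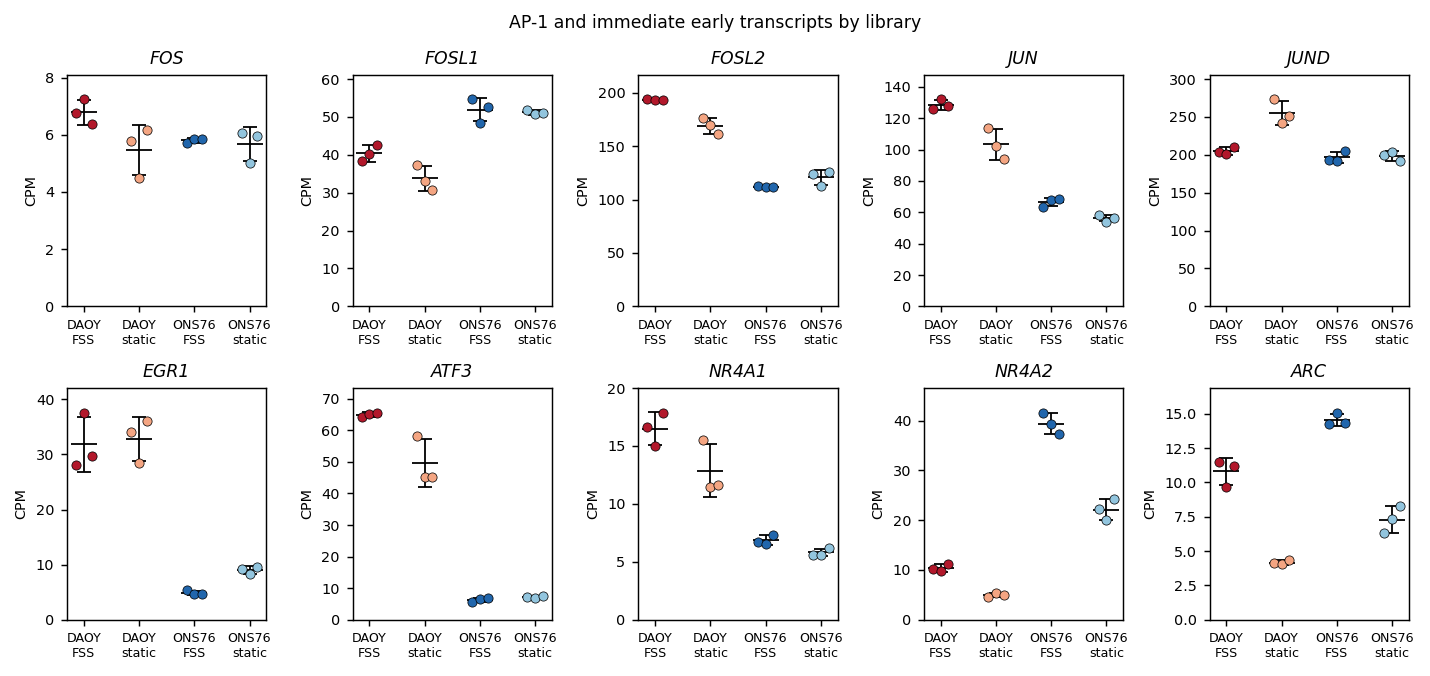
CPM of each of the 10 genes by group, with a point per library and bars for the mean ± SD (n = 3), each panel on its own axis from 0. ARC and NR4A2 stand higher under FSS than in static cells in both lines, EGR1 is lower under FSS in ONS76, and JUND is lower under FSS in DAOY.

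In DAOY, 8 of the 10 genes rose, JUND fell and EGR1 did not pass the threshold. Of all 19631 tested genes in DAOY, 39.7% were called, 19.5% as higher and 20.1% as lower, so the share of members that rose is above the background, in a list chosen with these results known. The members' median log2 fold change was 0.31 in DAOY, beside 0.00 over all tested genes. In ONS76, JUN, NR4A2 and ARC rose, EGR1 fell and 6 did not pass the threshold. There 28.0% of all tested genes were called, 14.1% as higher and 13.9% as lower, and the members' median was 0.02, beside 0.00 over all tested genes. In CPM, libraries did not overlap for 7 members that were higher and 1 that was lower under FSS in DAOY, where 24.8% and 25.1% of all tested genes separated in those directions. In ONS76 they did not overlap for 4 that were higher and 2 that were lower, where 19.5% and 19.1% did. The 3 genes that rose in both lines compare with 6.93% of all tested genes.

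Whether the lines responded differently was tested directly, as the log2 fold change in DAOY minus that in ONS76. EGR1 differed most, by 0.84 (95% interval 0.55 to 1.13, adjusted p = 8.17e-05 with edgeR). ATF3 differed by 0.57 (0.33 to 0.82, adjusted p = 0.00113 with edgeR) and FOSL2 by 0.30 (0.19 to 0.42, adjusted p = 0.000282 with edgeR). JUND was the 1 gene with the lower response in DAOY, at -0.30 (-0.42 to -0.19, adjusted p = 0.000293 with edgeR). FOSL1 passed narrowly at 0.24 (0.07 to 0.40, adjusted p = 0.0449 with edgeR) and lost the call in 15 of 21 alternatives, DESeq2 among them (0.0563). Thus 4 members were higher and 1 lower in this contrast, in which 19.1% of all tested genes were called, 8.34% as higher and 10.7% as lower.

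The other members' difference did not pass the threshold. For ARC it was 0.37 (95% interval 0.08 to 0.66, adjusted p = 0.0791 with edgeR), and it was called without DAOY FSS replicate 2 (0.0446), without static ONS76 replicate 1 (0.0286) or without static ONS76 replicates 1 and 2 together (0.0275). For NR4A2 it was 0.24 (0.00 to 0.48, adjusted p = 0.180 with edgeR). For FOS it was 0.28 (-0.07 to 0.62, adjusted p = 0.301 with edgeR) and for NR4A1 0.11 (-0.19 to 0.42, adjusted p = 0.688 with edgeR). These intervals leave room for differences of the size found for FOSL1 and FOSL2, so they do not show that the lines act alike. For JUN the interval is narrower, as given above.

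**Figure D4:**
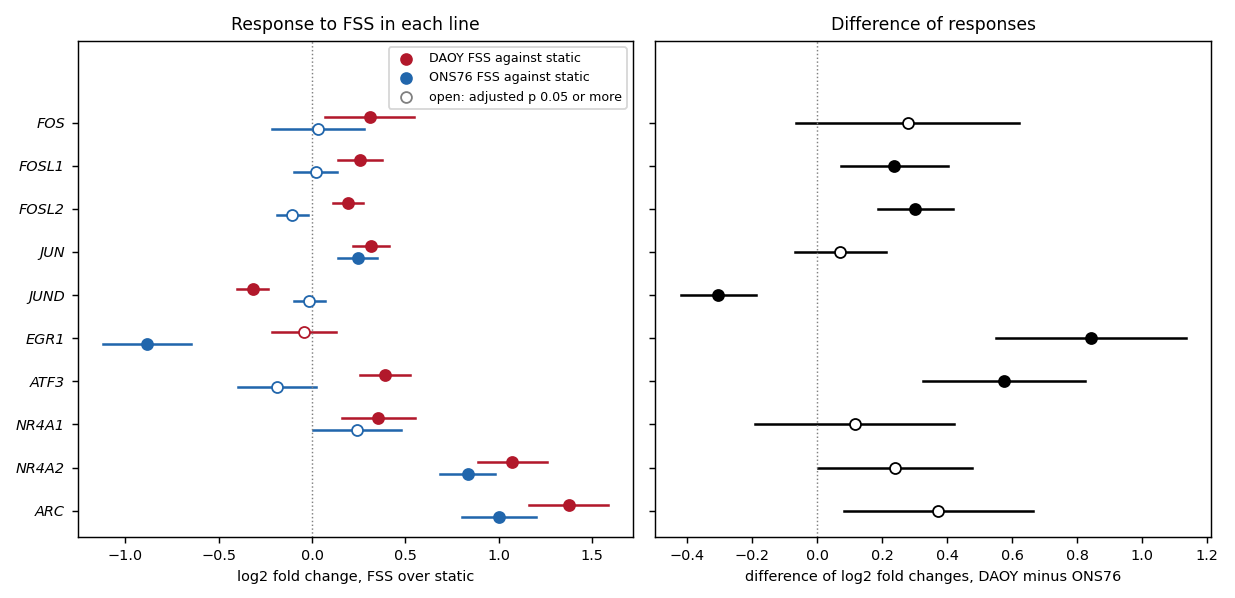
Log2 fold change of FSS over static in each line (left) and the difference of the responses, DAOY minus ONS76 (right), with a point per gene and lines for the 95% interval. Filled points passed an adjusted p of 0.05, and the widest gap between the lines is that of EGR1, at 0.84.

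The lines also differed before any shaking. Between static DAOY and static ONS76, 6 members were higher and 3 lower in DAOY, a contrast in which 81.0% of all tested genes were called, 43.2% as higher and 37.9% as lower, so that 9 called members is near the background. The median of all genes in this contrast was itself 0.10, and was 0.16 with RLE scaling, 0.32 with upper-quartile scaling and 0.33 on log2(TPM + 1). ATF3 averaged 49.6 ± 7.57 CPM in static DAOY and 7.18 ± 0.434 CPM in static ONS76 (SD, n = 3 each), a log2 difference of 2.79 (SE 0.086, adjusted p = 1.76e-24 with edgeR). EGR1 averaged 32.8 ± 3.97 CPM in static DAOY and 9.01 ± 0.673 CPM in static ONS76, a difference of 1.86 (SE 0.099, adjusted p = 7.50e-18 with edgeR). NR4A2 went the other way, with 4.93 ± 0.346 CPM in static DAOY and 22.1 ± 2.13 CPM in static ONS76, a difference of -2.17 (SE 0.090, adjusted p = 7.28e-21 with edgeR). ARC was lower in static DAOY by 0.81 and FOSL1 by 0.60 on the log2 scale, and NR4A1, JUN, FOSL2 and JUND were higher by 1.15, 0.88, 0.49 and 0.36. These calls and directions held in all 21 alternatives, but their sizes moved. ARC ran from -0.99 to -0.33, FOSL1 from -0.66 to -0.19 and NR4A1 from 1.02 to 1.52. JUN ran from 0.83 to 1.29, FOSL2 from 0.43 to 0.90 and JUND from 0.33 to 0.78. FOS had no called difference (log2 -0.05, adjusted p = 0.696 with edgeR), and its sign turned with the scaling.

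Levels of different genes were compared per length, in TPM. JUND was the most abundant of the 10 in every group, with means of 370.3, 462, 272 and 269 TPM in DAOY under FSS, static DAOY, ONS76 under FSS and static ONS76. JUN came next in DAOY, at 138 TPM under FSS and 111 TPM in static cells. FOSL1 came next in ONS76, at 81.4 TPM under FSS and 78.8 TPM in static cells. At the low end were NR4A1 in ONS76, at 3.77 TPM under FSS and 3.14 TPM in static cells, and ARC in static DAOY, at 4.92 TPM. ATF3 had the largest ratio between the static lines: 108 TPM in DAOY under FSS and 82.3 TPM in static DAOY, but 7.97 TPM in ONS76 under FSS and 8.93 TPM in static ONS76.

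Across groups the order of a gene's TPM was not the same from gene to gene. JUN, FOS and NR4A1 ran from DAOY under FSS through static DAOY and ONS76 under FSS to static ONS76, and neighbouring groups overlapped for FOS within ONS76 and for NR4A1 within DAOY. For FOS that order turned with the measure: in CPM static DAOY was the lowest group, at a mean of 5.48, with 5.81 in ONS76 under FSS and 5.68 in static ONS76. EGR1 was highest in both DAOY groups, at 35.4 TPM under FSS and 36.5 TPM in static cells with overlapping libraries, then 4.16 TPM in ONS76 under FSS and 7.52 TPM in static ONS76. NR4A2 was highest in ONS76, at 30.3 TPM under FSS and 16.7 TPM in static cells, with 10.4 TPM in DAOY under FSS and 4.96 TPM in static DAOY, and no neighbours overlapped. ARC reached 12.8 TPM in DAOY under FSS and 13.2 TPM in ONS76 under FSS, which overlapped, above 4.92 TPM in static DAOY and 6.48 TPM in static ONS76, which did not. In CPM the ARC libraries of the FSS groups did not overlap. FOSL1 at 82.7 TPM in DAOY under FSS overlapped both ONS76 groups, and static DAOY was lowest at 69.3 TPM.

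Genes of related roles, taken from lists that do not include the 10, were read beside them. These lists too were chosen with earlier results of these data known, so their counts are not independent support. Of 26 further immediate early genes, 21 were tested, and in DAOY 18 of those rose and 3 did not pass the threshold, with a median log2 fold change of 0.45, where 19.5% of all tested genes rose. SGK1, a kinase that promotes sodium uptake, stood at 1.32 (SE 0.056), TRIB1, a pseudokinase, at 0.78 (SE 0.064), PHLDA1 at 0.72 (SE 0.036) and MCL1, a survival protein of the BCL2 family, at 0.52 (SE 0.037). In ONS76 8 of the 21 rose and 5 fell, with a median of 0.07, where 14.1% of all tested genes rose and 13.9% fell. The matricellular gene CCN1 fell by 0.79 (SE 0.069), SGK1 by 0.46 (SE 0.054) and the zinc finger gene KLF10 by 0.31 (SE 0.052), while the prostaglandin synthase PTGS2 rose by 0.51 (SE 0.055). The difference of responses was called as higher in DAOY for 12 of the 21, against 8.34% of all tested genes, and 9 did not pass.

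Among 15 other AP-1 and bZIP factors, 11 were tested. In DAOY 6 rose and 1 fell, with a median of 0.24, led by JDP2, a repressor that pairs with JUN, at 0.60 (SE 0.048) and by the small MAF factors MAFK at 0.60 (SE 0.054), MAFF at 0.54 (SE 0.072) and MAFG at 0.25 (SE 0.055). In ONS76 ATF2 rose by 0.17 (SE 0.044) and the cAMP-responsive factor CREM fell by 0.24 on the log2 scale (SE 0.083), and 9 did not pass. The ATF2 call held in 21 of 22 alternatives, the exception being that without static ONS76 replicates 1 and 2 together. The CREM call was lost in 7 of 22, among them limma on log2 TPM. The 7 of 11 called in DAOY compare with 39.7% of all tested genes and the 2 of 11 in ONS76, which became 1 when some single libraries were left out, with 28.0%. Of 22 genes known as AP-1 targets, 16 were tested. In DAOY 9 rose and 2 fell, with a median of 0.31, among them the D-type cyclin CCND1 at 0.75 (SE 0.056), the chemokine CCL2 at 0.90 (SE 0.087) and the integrin ITGA2 at 0.42 (SE 0.040). In ONS76 3 rose and 4 fell, but 3 in all were called without ONS76 FSS replicate 2. The background share is 39.7% called in DAOY and 28.0% in ONS76. In ONS76 ITGA2 rose by 0.37 (SE 0.038). IL6, with 25 counts under FSS and 81 in static ONS76 over the group, fell by 1.70 on the log2 scale (SE 0.42), a size that ran from -2.26 to -0.41 over the alternatives, the smallest of them on log2(TPM + 1).

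Among the 22 kinases and factors upstream of immediate early genes, all tested, 2 rose and 11 fell in DAOY, with a median of -0.10, where 20.1% of all tested genes fell. MAPK3, which encodes the kinase ERK1, fell by 0.54 (SE 0.071) in DAOY and by 0.31 (SE 0.069) in ONS76. There 2 of the 22 rose and 4 fell, near the 28.0% called over all tested genes, among them RPS6KA3, the kinase RSK2, which fell by 0.21 (SE 0.038), and the coactivator gene CREBBP, which rose by 0.19 (SE 0.041). Changes of RNA do not measure kinase activity. Of 8 mRNA decay factors and EGR corepressors, 3 rose and 2 fell in DAOY and 2 rose and 3 fell in ONS76, beside 39.7% of all tested genes called in DAOY and 28.0% in ONS76. Without static ONS76 replicate 1 the 5 called in ONS76 became 3. ZFP36L2, which promotes decay of AU-rich RNAs, rose by 0.70 (SE 0.058) in DAOY. Its paralogue ZFP36L1 rose by 0.30 (SE 0.034) in DAOY and by 0.42 (SE 0.039) in ONS76, and HNRNPD, which encodes the AU-rich element binding protein AUF1, fell by 0.40 (SE 0.038) in DAOY and by 0.31 (SE 0.038) in ONS76. The SEs of these lists come from the same edgeR fit, and each gene named was among the 4 with the smallest p-values of its list in that line.

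**Figure D5:**
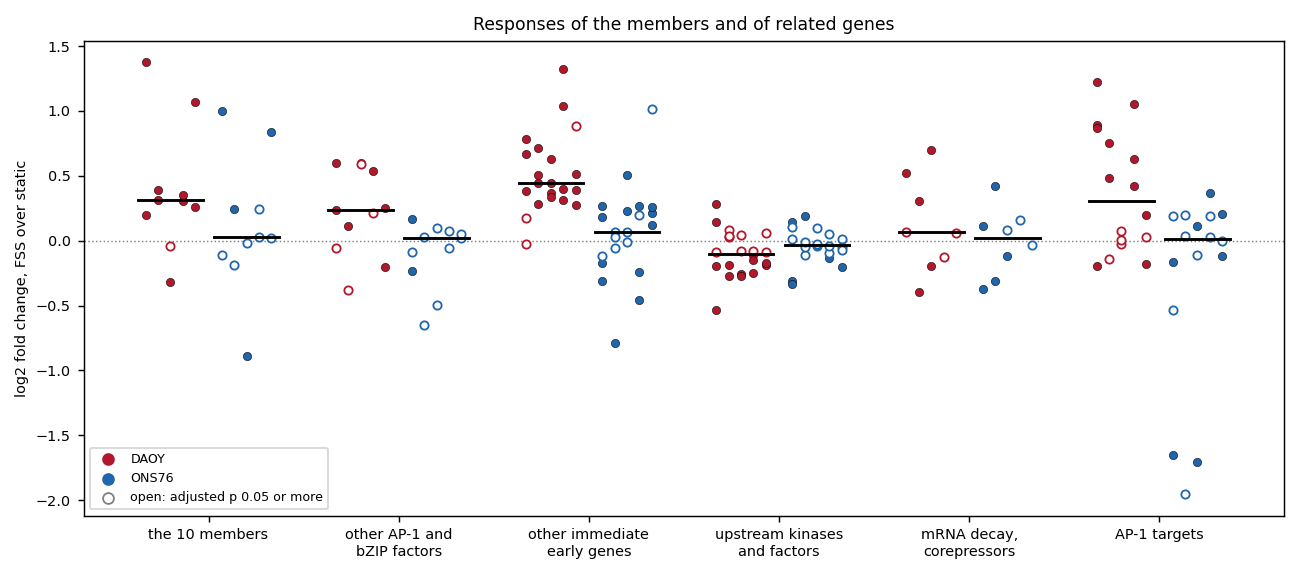
Log2 fold change of FSS over static for the 10 genes and for 5 lists of related genes, with a point per tested gene, filled where the adjusted p was under 0.05, and black lines at each list's median. In DAOY the median is 0.31 for the 10 genes and 0.45 for other immediate early genes, against 0.02 and 0.07 in ONS76.

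For each of the 10, the 2 genes with the most similar profile over the 12 libraries were sought among 10456 genes at 5 CPM or more, after the mean of each line was removed. Likeness was the root mean square difference of log2 CPM. NR4A2 was closest to CNIH3 (0.0889) and EIF4A2 (0.101), set against its own spread of 0.487. ARC was closest to HSPH1, a cytosolic chaperone of the HSP110 class (0.105), and to RSRP1 (0.109), against a spread of 0.606. ATF3 was closest to TXNRD1, a thioredoxin reductase (0.0671), and FOSL1 to the small MAF factor MAFG (0.0438). JUN was closest to DUXAP8 (0.0360), JUND to TSEN34 (0.0349), FOSL2 to WDR36 (0.0246), FOS to NTMT1 (0.0622), NR4A1 to ARID3B (0.0675) and EGR1 to ABHD11 (0.123). The spreads of ATF3, FOSL1, JUN and JUND were 0.191, 0.119, 0.156 and 0.122. Those of FOSL2, FOS, NR4A1 and EGR1 were 0.0899, 0.166, 0.198 and 0.337. A small difference beside a small spread is not by itself a closer likeness. These are descriptions of likeness over libraries that share 4 conditions.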

How the data were processed

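Per the submitters' processing notes, HISAT2 2.2.1 aligned reads to GRCh38 and featureCounts (no version named) counted them. Neither the annotation nor the counting's handling of strand and overlaps is stated. The authors deposited raw counts per gene and TPM values for the same 12 libraries. Tests used edgeR 4.0.16 under R 4.3.3 on the deposited counts (filterByExpr, TMM, quasi-likelihood, 1 mean per group over all libraries, 19631 genes tested). Adjusted p-values are Benjamini-Hochberg over all tested genes, two-sided, with 0.05 as the threshold. SE was derived from the fold change and its F, and 95% intervals from SE by the normal quantile. That makes them narrower than the F test implies, so an interval can exclude 0 where its p-value is above 0.05. The deposited TPM values served for levels between genes and family shares. The members and gene lists were chosen with earlier results of these data known. Named list genes are the 4 with the smallest p per list and line, some summarised as counts and 1 not reported here. Alternatives were DESeq2 1.42.0, limma 3.58.1 on log2 TPM (pseudocount 1 or 0.1), other scaling (RLE, upper quartile), no or a stricter filter, each line alone, a replicate block, and libraries left out. The counting error given in percent covers counting alone and not the spread between libraries.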

Additional observations from a re-analysis of the deposited data

Results flagged for a closer look

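For 5 of the 10 genes the response to FSS differed between the lines by a test of the difference itself, the log2 fold change in DAOY minus that in ONS76 (edgeR, adjusted over all tested genes). The difference was 0.84 for EGR1, 0.57 for ATF3, 0.30 for FOSL2, 0.24 for FOSL1 and -0.30 for JUND. Over all tested genes 19.1% were called in this contrast, 8.34% as higher and 10.7% as lower. The FOSL1 call was lost in 15 of 21 alternatives. EGR1 fell in ONS76 and was not called in DAOY, while ATF3, FOSL2 and FOSL1 rose and JUND fell in DAOY and none of these 4 was called in ONS76.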

How the results depend on the processing

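Of 22 alternatives, the FSS calls of FOSL1, FOSL2, JUN, JUND, ATF3, NR4A2 and ARC in DAOY and of JUN, EGR1, NR4A2 and ARC in ONS76 kept their direction and stayed past the threshold in every one. Same-numbered FSS and static libraries did not deviate together (r from -0.0344 to 0.0839 over 6 pairs). Weak correlations of so few libraries cannot exclude that same-numbered cultures shared a day, so whether the numbers pair the samples is not known. With the replicate block 9 members were called in DAOY, 4 in ONS76 and 4 for the difference of responses, where FOSL1 was lost (0.24, adjusted p = 0.0511 with edgeR). Members called lower in ONS76 numbered 2 in place of 1, because FOSL2 was added, with no filter, the stricter filter, each line alone and without static ONS76 libraries 1 and 2 together, and 1 to 2 when single libraries were left out. Called in ONS76, the other AP-1 and bZIP factors numbered 2, but 1 with limma on TPM at both pseudocounts, 0 without both static libraries and 1 to 2 without single libraries. The mRNA decay list numbered 5 there, but 3 without both static libraries and 3 to 5 without single ones. The AP-1 target list numbered 7, and 3 to 7 without single libraries, the 3 being without ONS76 FSS replicate 2. Leaving out single libraries gave 7 to 9 called members in DAOY.

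Directions turned only for results that were not called with edgeR as reported. When single libraries were left out, EGR1 in DAOY (-0.043) ran from -0.191 to 0.0296, positive without FSS replicate 1 or 3 (0.0046) or static replicate 3 (0.023). FOS in ONS76 (0.031) ran from -0.0496, without static replicate 2, to 0.0823, and was -0.0386 without both static libraries. FOSL1 in ONS76 (0.019) ran from -0.0188, without FSS replicate 1, to 0.0665. JUND in ONS76 (-0.014) ran from -0.0445 to 0.0059, positive without FSS replicate 2 (0.0036) or static replicate 2, and was 0.0119 and 0.0120 with limma on TPM at pseudocounts of 1 and 0.1 and 0.0373 without both static libraries. FOS between the static lines (-0.054) became 0.00774 with DESeq2, 0.00735 with RLE, 0.0142 with the stricter filter, 0.167 with upper-quartile scaling, -0.135 to 0.0916 without single libraries (positive without static DAOY replicate 2), and 0.32 and 0.35 with limma on TPM at pseudocounts of 1 and 0.1 (adjusted p = 0.0112 in both). Shares computed from counts, which are not corrected for length, were 38.5%, 28.8%, 25.3% and 22.1% for JUN and 80.4%, 81.2%, 66.0% and 67.9% for FOSL2, in DAOY under FSS, static DAOY, ONS76 under FSS and static ONS76. These shares differ from those in TPM by the length correction. What turned the directions above was not tested. Counting error of up to 7.50% per library limits the least abundant members, such as EGR1 in ONS76 under FSS, ARC in static DAOY and FOS in static ONS76.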
